A study of Rattus norvegicus with 6 samples.

Results

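Rat lncRNAs that the array names only by a mouse transcript made up 3348 of the 6716 probes measured in the denervated and the normal hippocampus. They were taken as the lncRNA probes whose annotation gives a mouse homology transcript, without the 8 such probes that the study had picked for its PCR list. Probes annotated with a rat transcript served for comparison. These were 1672 Ensembl rat transcripts and 1671 RefSeq transcripts, again without the 11 and the 1 on that list.

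Hippocampal RNA of adult Sprague–Dawley rats was hybridized to the lncDETECT rat array in 1 colour (Cy5). The denervated group held 3 hippocampi harvested on day 7 after fimbria-fornix (FF) transection, made with a wire knife. The normal group held 3 untreated hippocampi. The methods say that the denervated and untreated tissue came from 3 paired rats of both sexes. Whether a pair is both sides of 1 rat, which samples form a pair and the sex of each sample are not given in the sources used here, and no sham operation is described. Values are the deposited log2 normalized intensity, which the authors had made comparable between arrays by 50% scaling.

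The fimbria-fornix is the fibre bundle that carries septal, largely cholinergic, input to the hippocampus, and its transection is a classical way to denervate this region. lncRNAs are transcripts without a long open reading frame, some of which act on chromatin, on splicing or as decoys of microRNAs. Their sequences are often poorly conserved between species, while their position beside conserved genes is kept more often. A mouse transcript placed on the rat genome by homology therefore names a region where a rat lncRNA may lie, which is weaker evidence than a rat cDNA.

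All 3348 probes carried a mouse RefSeq noncoding accession (prefix NR). The accessions numbered 3118, and none of them is in the rat RefSeq table used here, so these lncRNAs are given by probe number and mouse accession without a gene name. Of the accessions, 2962 had 1 probe and 156 were shared by 386 probes, up to 9 for one accession. The rat matches lay on every autosome, on X (165 probes) and on unplaced contigs (7 probes), with 1733 on the plus and 1615 on the minus strand. Coordinates below are those of the array's annotation. Its build is not named in the sources used here, though the names of its unplaced contigs are those of the rat assembly Rnor_5.0.

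The rat match of a mouse transcript spanned from 40 to 925298 bases, with a median of 5354.5, against 677.5 for the Ensembl rat transcripts. A span covers the introns as well as the exons. For 642 of the lncRNAs (19.2%) the whole match was under 200 bases, the length from which a noncoding RNA is usually called long. These short matches had a median level of 9.82 and a median within-group SD of 0.498, beside 10.04 and 0.553 for the 2706 longer ones. A set of 293 RefSeq probes that the rat table names as microRNA genes had a median level of 9.82 and an SD of 0.541.

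The mouse-matched lncRNAs were dimmer than the Ensembl rat transcripts and slightly brighter than the RefSeq transcripts in each of the 6 hippocampi. Their median log2 intensity was 10.05, 10.04 and 10.03 in denervated 1, 2 and 3, and 10.03, 10.04 and 10.04 in normal 1, 2 and 3. The medians of the Ensembl rat transcripts lay between 10.71 and 10.79, and those of the RefSeq transcripts between 9.88 and 9.96. No sample's median of the mouse-matched lncRNAs reached that of the Ensembl rat transcripts. The difference from the Ensembl rat transcripts was -0.70 ± 0.04 (SD, n = 6) and ranged from -0.76 to -0.66 (exact sign-flip permutation test over the samples, two-sided p = 0.03125, the smallest that 6 samples allow). Against the RefSeq transcripts it was 0.11 ± 0.04 (SD, n = 6), with 0.07 as the lowest and 0.17 as the highest value (same exact test, p = 0.03125). In all, 7 such comparisons over samples were made, and after Benjamini-Hochberg adjustment both exact p-values became 0.0729. Intensities of different probes also depend on their sequence, so these are differences in signal and not in amounts of RNA. The test covers the samples, all of which share the same probes, so a class difference set by the probes would have 1 sign in every sample. It treats the 6 samples as independent, although pairs of them may come from the same rat.

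**Figure D1:**
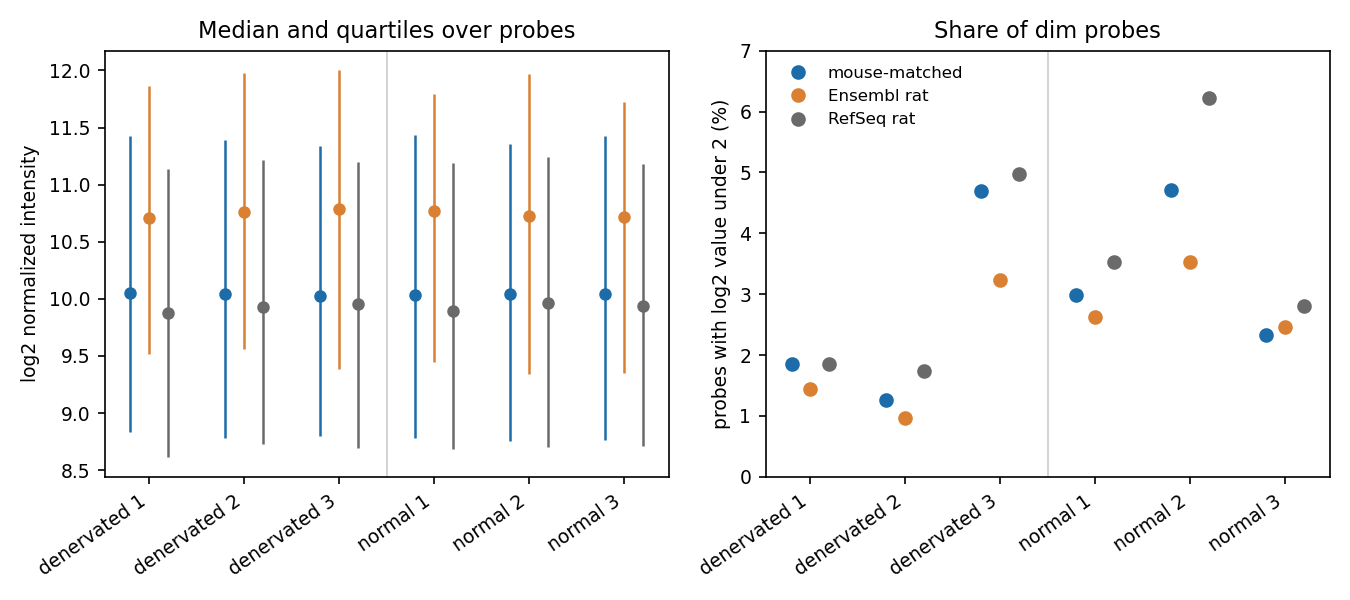
Left, log2 normalized intensity by sample for the 3 probe classes, as the median (point) and the quartiles (line) over probes; right, the percentage of probes of each class with a log2 value under 2. The mouse-matched medians lie between 10.03 and 10.05 in all 6 samples, and all classes have more dim probes in denervated 3 and normal 2 than in the other 4 samples.

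A separate group of values lay at the bottom of the scale, where signal cannot be told from background, and a value under 2 is called dim here. The share of dim mouse-matched probes was 1.85%, 1.25% and 4.69% in denervated 1, 2 and 3, and 2.99%, 4.72% and 2.33% in normal 1, 2 and 3. Denervated 3 and normal 2 were thus the samples with most dim values, and the groups overlapped. Against the Ensembl rat transcripts the share was higher by 0.600 ± 0.599 percentage points (SD, n = 6), higher in 5 of 6 samples (exact sign-flip permutation test, two-sided p = 0.0625, adjusted 0.109). Without denervated 3 and normal 2 this excess was 0.237. Against the RefSeq transcripts it was -0.549 ± 0.509 points (SD, n = 6), lower in 6 of 6 samples (exact p = 0.03125, adjusted 0.0729), and -0.358 without normal 2. In denervated 1 the 2 shares were nearly equal, with a difference of -0.0033 points.

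Over all 6 samples, 278 of the mouse-matched lncRNAs (8.30%) had at least 1 dim value, beside 6.16% of the Ensembl rat transcripts, 9.52% of the RefSeq transcripts and 8.04% of all probes. Of these 278, 133 were dim in 1 sample, 56 in 2 and 89 in 3 or more. Denervated 3 and normal 2 together held 315 of the 597 dim values (52.8%), and 118 lncRNAs (42.4% of the 278) were dim in no other sample. The median level of the samples that were not dim was 6.58 for the 278 lncRNAs, which lies in the dimmest of 4 equal groups of probes by level. Dim values therefore fell mostly on lncRNAs with low signal elsewhere, and for 60 of them the other samples read above 8.

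Dimness seldom followed the groups. lncRNA3055 was the single mouse-matched lncRNA that was dim in every normal and in no denervated sample, and RB_p_rnol000021 and lncRNA916 were the 2 with the reverse pattern. Another 9 were dim in all 6 samples: lncRNA761, lncRNA1971, lncRNA2307, lncRNA2527, lncRNA3580, lncRNA4370, lncRNA4968, lncRNA5668 and lncRNA6206. Their highest single value was 1.45, for lncRNA2307 in denervated 1. At this signal no level could be given for these 9 in either group.

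At the other end, lncRNA4754, matched to NR_028258 on chromosome 20 from 7091299 to 7093166 (minus strand), was the brightest mouse-matched lncRNA. It read 15.91, 15.99 and 15.45 in the denervated and 15.44, 15.53 and 15.28 in the normal samples. Denervated 1 and 2 were the highest, and the groups overlapped since normal 2 lay above denervated 3. The highest value of any mouse-matched lncRNA was the same, 15.99, in denervated 2, denervated 3 and normal 2, so differences between lncRNAs or samples close to it may be cut short. lncRNA4289 (NR_033222), lncRNA3363 (NR_045285) and lncRNA3146 (NR_035407) followed with mean levels of 15.51, 15.43 and 15.41, then lncRNA645 (NR_029761) and lncRNA2754 (NR_027380) with 15.07 and 15.02. lncRNA3146 and lncRNA645 are matches of only 85 and 94 bases. None of the 6 differed by more than 0.37 on the log2 scale between the groups.

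The spread between samples was about that of the other classes. The median within-group SD, pooled over both groups, was 0.540 for the mouse-matched lncRNAs, 0.543 for the Ensembl rat transcripts and 0.574 for the RefSeq transcripts. Spread depended on level. When all probes of the array were divided into 4 equal groups by mean intensity, the mouse-matched lncRNAs had a median SD of 1.19 in the dimmest group (levels up to 8.84), then 0.499, 0.460 and 0.400 in groups 2, 3 and 4. The Ensembl rat transcripts had 1.46, 0.523, 0.520 and 0.460 in the same groups, and the RefSeq transcripts 1.26, 0.526, 0.451 and 0.421. At matched level the mouse-matched lncRNAs thus had the lowest median SD in groups 1, 2 and 4, and the RefSeq transcripts in group 3. These are descriptions, not tests. Of the mouse-matched lncRNAs 27.1% lay in the dimmest group and 23.4% in the brightest, against 17.7% and 32.7% of the Ensembl rat transcripts. Without denervated 3 and normal 2, a setting added after the data were seen, the median SD of the mouse-matched lncRNAs was 0.366. Fewer samples tend to lower a median SD by construction, and this SD was not computed for the other classes.

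**Figure D2:**
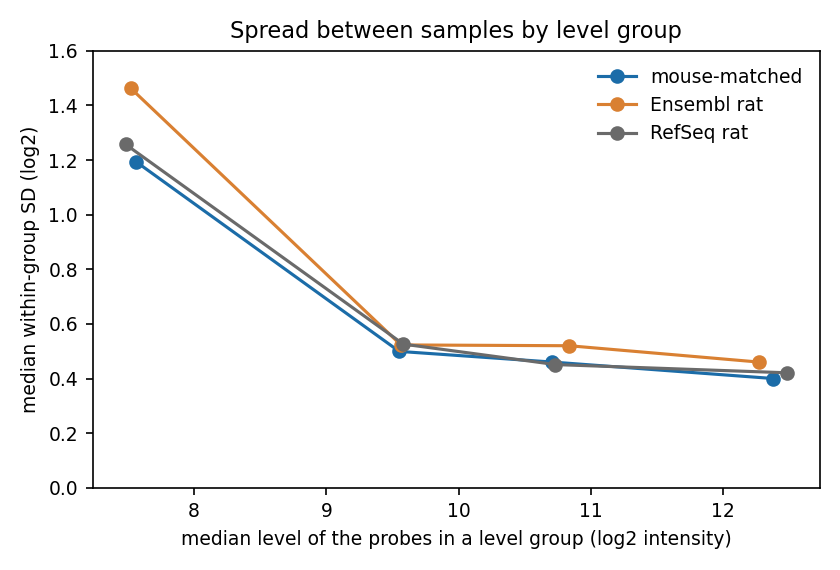
Median within-group SD (log2) against median level (log2 intensity) for the probes of each class, in 4 equal groups by mean intensity over all probes. For the mouse-matched lncRNAs the SD falls from 1.19 in the dimmest to 0.400 in the brightest group.

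Among lncRNAs with no value under 5, the 4 with the largest within-group SD are described here. lncRNA729 (NR_074087) read 8.36, 13.11 and 9.06 in the denervated and 13.68, 8.93 and 13.88 in the normal samples. lncRNA5293 (NR_002899) read 7.13, 11.86 and 7.55 against 11.79, 7.57 and 11.42. Both were high in denervated 2, normal 1 and normal 3 and low in the other 3 samples. lncRNA4662 (NR_033523) ran the other way, with 12.85, 10.56 and 13.56 in the denervated and 8.36, 13.60 and 7.21 in the normal samples. lncRNA4965 (NR_002846) was lowest in normal 2, at 6.53, and next lowest in denervated 3, at 9.53. The groups of all 4 overlapped, which the choice by within-group SD favours.

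Across the mouse-matched lncRNAs the samples did not sort by group. Normal 1 and normal 3 were most alike (Pearson correlation across lncRNAs 0.920), followed by denervated 2 and normal 1 (0.898) and denervated 2 and normal 3 (0.886). Denervated 3 was closest to normal 2 (0.857), and denervated 2 and normal 2 were least alike (0.680). Samples of the same group correlated at 0.801 on average, and samples of different groups at 0.819. By an exact permutation test over the 10 possible divisions into 3 and 3 samples, one-sided p was 0.6 (adjusted 0.817 over the 7 comparisons). The correlations are across lncRNAs, which are not independent replicates. Denervated 3 and normal 2, which held most of the dim values, were each closest to the other, and counts below are also given without them.

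In the denervated hippocampus 1725 mouse-matched lncRNAs (51.5%) had a higher and 1623 a lower mean than in the normal hippocampus, without any threshold. Of all probes, 52% had a higher mean, of the Ensembl rat transcripts 56.2% and of the RefSeq transcripts 48.4%. The median log2 difference was 0.02 for the mouse-matched lncRNAs, 0.05 for the Ensembl rat transcripts and -0.01 for the RefSeq transcripts. The median level of the mouse-matched lncRNAs relative to the Ensembl rat transcripts shifted by -0.016 after transection (exact permutation test, two-sided p = 0.7, where the smallest possible is 0.1), and relative to the RefSeq transcripts by 0.009 (exact p = 0.9). The 393 lncRNAs with a value under 5 were more often higher (62.8%) than the 2955 without one (50.0%). Shares by a value under 5 were not computed for the other classes, so this cannot be read as a trait of the lncRNAs. In the dimmest of 4 level groups, 53.5% of the mouse-matched lncRNAs, 55.7% of the Ensembl rat transcripts and 52.9% of RefSeq transcripts were higher. The dim values themselves were more frequent in the normal samples, with 336 against 261 in the denervated samples. In all classes normal 2 had the largest share of dim probes and denervated 2 the smallest. In whole tissue, fewer cells of a type and less RNA per cell cannot be told apart. In the study's quality table RNA integrity was higher in every denervated than in every normal sample, so that group and RNA integrity cannot be told apart. None of 26 markers of neurons, glia, vessels and progenitors that were looked up had a probe in the table, so the cell makeup of the samples was not checked.

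The methods call a lncRNA changed when its log2 difference is beyond 1 in size and its p is under 0.05. With the unadjusted p of limma, 22 mouse-matched lncRNAs (0.657%) were higher after transection, against a background of 1.04% of all probes. Another 14 (0.418%) were lower, against a background of 0.298%. All background shares in this text keep the 20 probes of the study's PCR list, which the 3 classes leave out. The study had picked these among lncRNAs it found changed, which raises the background called higher. The higher share was 1.14% for the Ensembl rat transcripts (19 probes) and 0.898% for the RefSeq transcripts (15 probes), and the lower share 0.239% (4 probes) and 0%. Whether the classes differ in these shares was not tested. After Benjamini-Hochberg adjustment over all probes limma called 1 mouse-matched lncRNA, lncRNA3055. It was the only probe of all 6716 to pass, so the background of 0.0149% is this lncRNA itself. An unadjusted p under 0.05 in limma was found for 35 higher (background 1.46%) and 19 lower mouse-matched lncRNAs (background 0.506%). Lack of overlap between the groups, with no threshold on size, was found for 92 lncRNAs that were higher (2.75%, background 3.37%) and 83 that were lower (2.48%, background 2.53%).

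These counts moved with single samples, and those of all probes moved with them. Without denervated 1 the thresholds were passed by 9 higher (background 0.581%) and 15 lower mouse-matched lncRNAs (background 0.328%). Without denervated 2 there were 24 higher (0.717%, background 0.864%) and 48 lower (1.43%, background 1.34%). Without denervated 3 there were 43 higher (1.28%, background 1.98%) and 45 lower (1.34%, background 1.18%). The counts without normal 1 stayed near those of all samples, at 25 higher (background 1.10%) and 11 lower (background 0.298%). The lncRNAs behind them changed, since only 7 of the 22 and 8 of the 14 were still called. Without normal 2 there were 96 higher (2.87%, background 3.65%) and 36 lower (1.08%, background 1.09%). Without normal 3 there were 28 higher (background 0.819%) and 5 lower (background 0.0893%). Without both denervated 3 and normal 2 the counts were 110 higher (3.29%, background 4.01%) and 47 lower (1.40%, background 1.38%). In this smaller set 13 of the 22 and 7 of the 14 were still called.

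Of the 36 called lncRNAs, 12 had a dim value (9 higher and 3 lower) and 15 a value under 5. Matches under 200 bases were 3 of those called higher (22) and 6 of those called lower (14). Of all mouse-matched lncRNAs, 8.30% had a dim value, 11.7% a value under 5 and 19.2% a match under 200 bases. Whether the called lncRNAs differ in these shares was not tested. The groups did not overlap for 17 of those called higher and 14 of 14 called lower, which the choice by difference and p favours. Differences on the log2 scale ranged from 1.10 to 6.22 for those called higher and from -5.95 to -1.05 for those called lower. Their median differences were 1.70 and -1.43.

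Among the lncRNAs called higher with no value under 5 and no overlap, lncRNA51 had the largest difference. lncRNA51 matches NR_033782 on chromosome 3 from 181750643 to 181752753 (minus strand) and read 8.58, 7.49 and 7.59 in the denervated against 6.64, 5.21 and 7.23 in the normal samples. Denervated 1 was the highest and normal 2 the lowest, and denervated 2 lay only just above normal 3. The means differed by 1.53 on the log2 scale (standard error 0.62), or 2.88-fold (limma, adjusted p = 1.0). lncRNA51 passed the thresholds in only 2 of 13 alternatives.

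lncRNA5347 matches NR_036572 on chromosome 1 from 194713998 to 194720841 (minus strand) and read 11.16, 11.51 and 11.84 in the denervated against 10.11, 10.64 and 10.06 in the normal samples. Every denervated sample lay clearly above every normal sample, and no sample stood out from its group. The mean was 11.50 ± 0.34 (SD, n = 3) against 10.27 ± 0.32 (SD, n = 3), a log2 difference of 1.23 (standard error 0.33), or 2.35-fold (limma, adjusted p = 1.0). lncRNA5347 passed the thresholds in 14 of 14 alternatives. lncRNA1274, a probe for NR_029471 whose span lies inside that of lncRNA5347 and shares its start coordinate, read 12.13, 11.63 and 11.90 against 11.63, 11.45 and 11.71, a difference of 0.30.

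lncRNA5366 matches NR_038089 on chromosome 7 from 3025736 to 3027038 (minus strand), and another probe for this mouse transcript, lncRNA1200, lies on chromosome 13. lncRNA5366 read 11.99, 13.34 and 12.76 in the denervated against 11.72, 11.05 and 11.78 in the normal samples, and its groups did not overlap. lncRNA1200 read 12.80, 12.70 and 12.85 against 11.46, 12.58 and 11.79, again without overlap, with normal 2 close to the denervated samples. The log2 differences were 1.18 and 0.84, of which the second missed the thresholds.

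The other higher lncRNAs of this kind were lncRNA5781 (NR_028441, 9.58, 10.23 and 9.80 against 9.50, 8.03 and 7.72), lncRNA3980 (NR_026798) and lncRNA3725 (NR_030706, on X). Normal 1 of lncRNA5781 lay just under the denervated samples. Of the 2 further probes for its mouse transcript, lncRNA510 had a log2 difference of -0.58 and lncRNA2650 of -0.12, both opposite to the 1.45 of lncRNA5781. lncRNA4214, whose span overlaps that of lncRNA5781, had a difference of 0.41. lncRNA3980 read 8.74, 8.06 and 8.86 against 6.09, 7.72 and 7.53, and lncRNA3725 read 9.24, 9.36 and 9.97 against 7.45, 9.03 and 8.35. In both, normal 1 was the lowest sample and the groups did not overlap, with log2 differences of 1.44 and 1.25 (limma, adjusted p = 1.0 for both). These calls were often lost, since lncRNA3980 and lncRNA5366 passed the thresholds in 6 of 13 and 6 of 14 alternatives, and lncRNA5781 and lncRNA3725 in 5 of 13 each.

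Among the lncRNAs called lower with no value under 5 and no overlap, lncRNA2401 had the largest difference. It matches NR_004429 on chromosome 20 from 14198029 to 14264946 (plus strand) and read 9.51, 8.63 and 8.46 in the denervated against 9.79, 10.72 and 10.83 in the normal samples. The groups did not overlap, with denervated 1 and normal 1 nearest to each other. The means differed by -1.58 on the log2 scale (standard error 0.45), or 2.99-fold (limma, adjusted p = 1.0). lncRNA5065, which carries another mouse accession (NR_021486) on exactly the same rat span, read 9.47, 8.51 and 9.33 against 9.50, 10.27 and 10.77. Its difference ran the same way, at -1.08 (limma, unadjusted p = 0.058).

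lncRNA788 (NR_029719) and lncRNA5387 (NR_029589) are short matches, of 98 bases on chromosome 4 from 145680955 to 145681052 and of 72 bases on chromosome 1 from 219214575 to 219214646, both on the minus strand. lncRNA788 read 6.38, 6.36 and 6.26 in the denervated against 7.75, 8.19 and 7.29 in the normal samples. lncRNA5387 read 7.22, 6.69 and 7.37 against 8.49, 8.05 and 8.38. In both, each denervated sample lay below each normal sample, with a clear gap. The log2 differences were -1.41 with a standard error of 0.32 and -1.21 with one of 0.31 (limma, adjusted p = 1.0 for both). Each passed the thresholds in 12 of 13 alternatives and missed them with an intensity trend in limma, at an unadjusted p of 0.077 and 0.078.

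lncRNA1432 (NR_037247), a match of 60 bases on chromosome 1, read 8.05, 8.55 and 7.75 against 9.39, 8.87 and 9.61. lncRNA4550 (NR_078345, chromosome 4) read 7.52, 5.87 and 6.18 against 7.76, 8.26 and 7.92. lncRNA1631 (NR_045292, chromosome 20) read 10.27, 11.40 and 9.80 against 12.37, 11.47 and 11.56. Their groups did not overlap, yet denervated 1 of lncRNA4550 and denervated 2 of lncRNA1631 nearly reached the normal samples. The log2 differences were -1.18, -1.46 and -1.32, and the thresholds were passed in 8 of 13, 5 of 13 and 6 of 14 alternatives. lncRNA2943, whose span on chromosome 20 lies inside that of lncRNA1631 and shares its end, had a difference of 0.03.

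**Figure D3:**
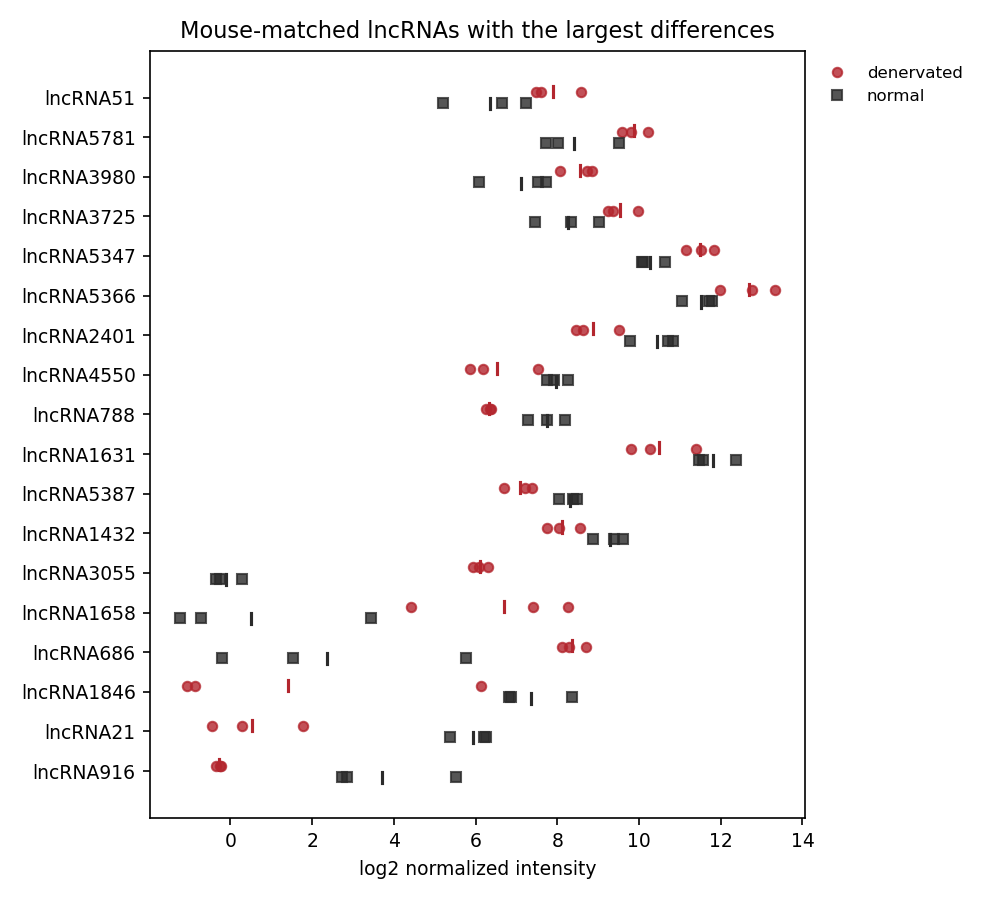
Log2 normalized intensity of 18 mouse-matched lncRNAs in the 3 denervated (red circles) and 3 normal samples (black squares), with a vertical bar for each group mean. The upper 12 have no value under 5 and differ by 1.18 to 1.58 in either direction, and the lower 6 have samples near the bottom of the scale.

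The differences of the largest size belonged to dim lncRNAs. lncRNA3055 matches NR_040465 on chromosome 9 from 46285101 to 46288252 (minus strand) and read 6.09, 5.93 and 6.30 in the denervated against -0.36, 0.28 and -0.24 in the normal samples. All 3 normal samples were at the bottom of the scale, and the denervated samples lay close together at a low signal. The log2 difference was 6.22 with a standard error of 0.30 (limma, Benjamini-Hochberg adjusted p = 0.00675). With values under 5 set to 5 it was 1.11, so its size depends on values at the bottom of the scale. lncRNA3055 passed the thresholds of the methods in 13 of 13 alternatives, while its adjusted p in limma ranged from 0.00689 to 1.0.

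lncRNA686 (NR_029546), a match of 66 bases on chromosome 10 from 61729402 to 61729467 (plus strand), read 8.11, 8.70 and 8.28 in the denervated against 5.76, -0.20 and 1.54 in the normal samples. Normal 2 and normal 3 were dim and normal 1 was not, so the 3 normal samples spanned a far wider range than the denervated ones. With values under 5 set to 5 the difference was 3.11 in place of 5.99. lncRNA1658 (NR_034051, chromosome 19) read 4.42, 7.42 and 8.26 against 3.43, -1.23 and -0.72. Here denervated 1 was less than 1 above normal 1, and the floor brought 6.20 down to 1.89. The 2 other probes for this mouse transcript, lncRNA3388 and lncRNA4405, lie on chromosomes 6 and 2 and had differences of 1.53 and 0.22.

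On the lower side, RB_p_rnol000021 matches NR_030568 on chromosome 17 from 73495915 to 73500015 (minus strand) and read -0.44, 0.29 and 1.77 against 6.20, 5.37 and 6.25. Every denervated sample was dim and every normal sample was above 5. The log2 difference was -5.40 (limma, Benjamini-Hochberg adjusted p = 0.338), or -0.94 with values under 5 set to 5. lncRNA5228, matched to NR_030555 on the same rat span, read 1.70, -0.26 and 2.72 against -0.38, -0.25 and -0.53, a difference of 1.77 in the opposite direction. lncRNA1846 (NR_030264, a match of 85 bases on X) read -1.06, 6.14 and -0.86 against 6.82, 8.37 and 6.88, and denervated 2 alone was near the normal samples. lncRNA916 (NR_024201, a match of 51 bases on chromosome 4) read -0.22, -0.35 and -0.25 against 2.72, 5.53 and 2.86. With the floor its difference fell from -3.98 to -0.18, since 2 of its normal samples were themselves under 5.

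For some lncRNAs 1 sample decided. lncRNA937 (NR_030495) read 6.79, 7.17 and -0.24 in the denervated against -0.47, -0.46 and -0.53 in the normal samples. lncRNA3315 (NR_045346) read 6.96, 8.14 and -0.51 against -0.19, -0.42 and -0.27, and lncRNA4254 (NR_033475) read 3.68, 3.71 and -0.44 against -0.62, -0.79 and -0.39. In all of these, denervated 3 was dim like the normal samples. Without denervated 3, these 3, lncRNA3055 and RB_p_rnol000021 passed the adjusted p in limma (0.0172 to 0.0423), 5 lncRNAs in place of 1. lncRNA937, lncRNA3315 and lncRNA4254 are named here after their values were seen.

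Probes that share a mouse transcript show how far 1 mouse accession stands for 1 rat signal. The 384 pairs of such probes resembled each other in level, with a Pearson correlation across pairs of 0.625 and a median gap of 0.673 on the log2 scale, where any 2 mouse-matched lncRNAs differed by a median of 2.03. In their difference after transection they did not, with a correlation of 0.074 and the same direction in 53.9% of pairs, where any 2 would share it in 50.0%. Pairs are not independent, since a probe can be in several, so these are descriptions without a test. Differences were also small beside the spread between samples, with a median size of 0.268 and a median SD of 0.499 in group 2 by level. A low correlation of differences therefore does not show that such probes respond differently. For the 198 pairs of probes placed on exactly the same rat span (285 lncRNAs), the correlations were 0.735 for level and 0.009 for the difference. Pairs with no value under 5 gave 0.864 and 0.147 over the same kind of span.

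**Figure D4:**
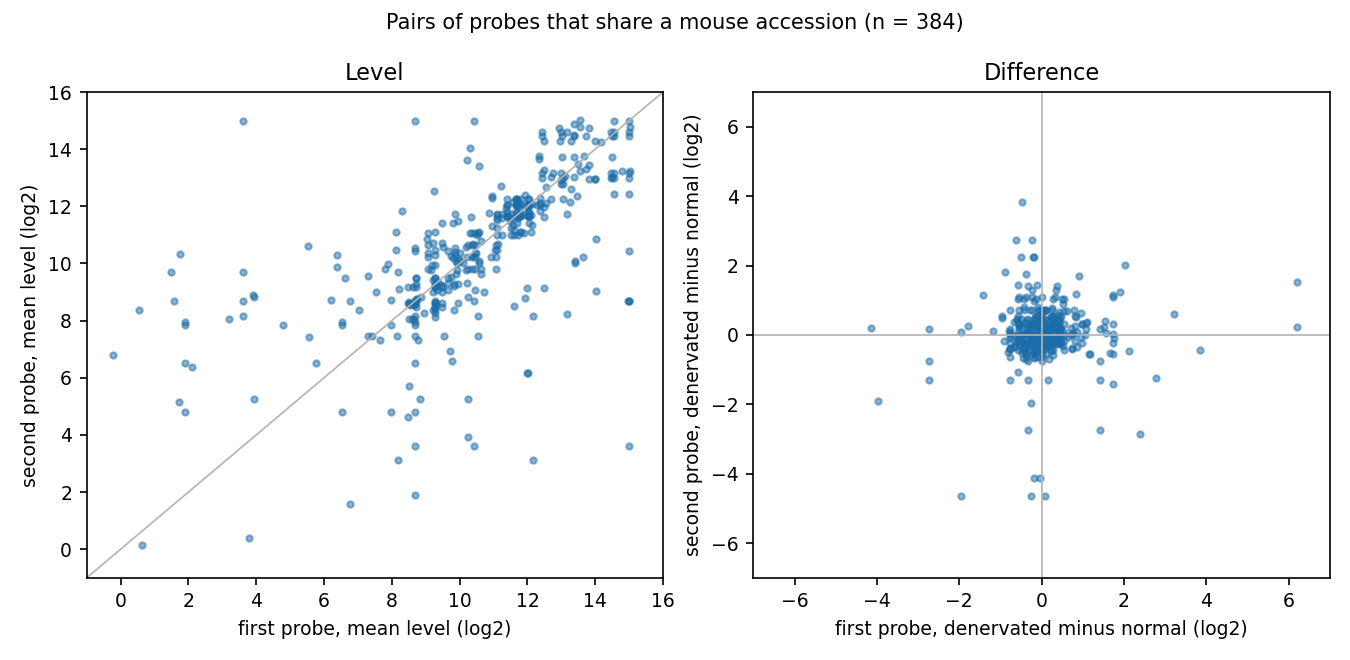
Each point is 1 of 384 pairs of probes that share a mouse accession. Left, mean log2 intensity of the 2 probes, with the line of equality; right, their log2 differences between the denervated and normal samples, scattered around 0 with a correlation of 0.074.

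Of the 37 accessions with 3 or more probes, 29 had probes with mean differences of both signs and 8 had probes of 1 sign, counted without any threshold. The most frequent, NR_030463, had 9 probes at 9 places on 7 chromosomes, each a match of 40 to 46 bases. Their levels lay between 11.41 and 12.27, and their differences between -0.26 and 0.46. Denervated 3 was the highest of the denervated and normal 2 the highest of the normal samples for 9 of 9 probes, a pattern found in 31.4% of all mouse-matched lncRNAs. Such short, near-equal matches may share target sequence, and the probes then are not separate measurements. The probe sequences were not used here.

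NR_033603 had 7 probes on 6 chromosomes, of which 6 had levels between 9.81 and 11.07. The seventh, lncRNA3198, read 10.29, 10.18 and 9.37 in the denervated and 10.53, 3.45 and 10.63 in the normal samples, so that a single sample, normal 2, set its difference of 1.74. NR_028141 had 7 probes, 6 of them near the start of chromosome 14 and 1 on chromosome 10, with spans of up to 611070 bases. Some of these spans overlap. Their levels lay between 8.48 and 9.49 and their differences between -0.58 and 1.05, 3 of them above 0. No probe of these 3 accessions passed the thresholds of the methods. NR_033630 has 7 probes as well and is left out by the order of accessions.

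**Figure D5:**
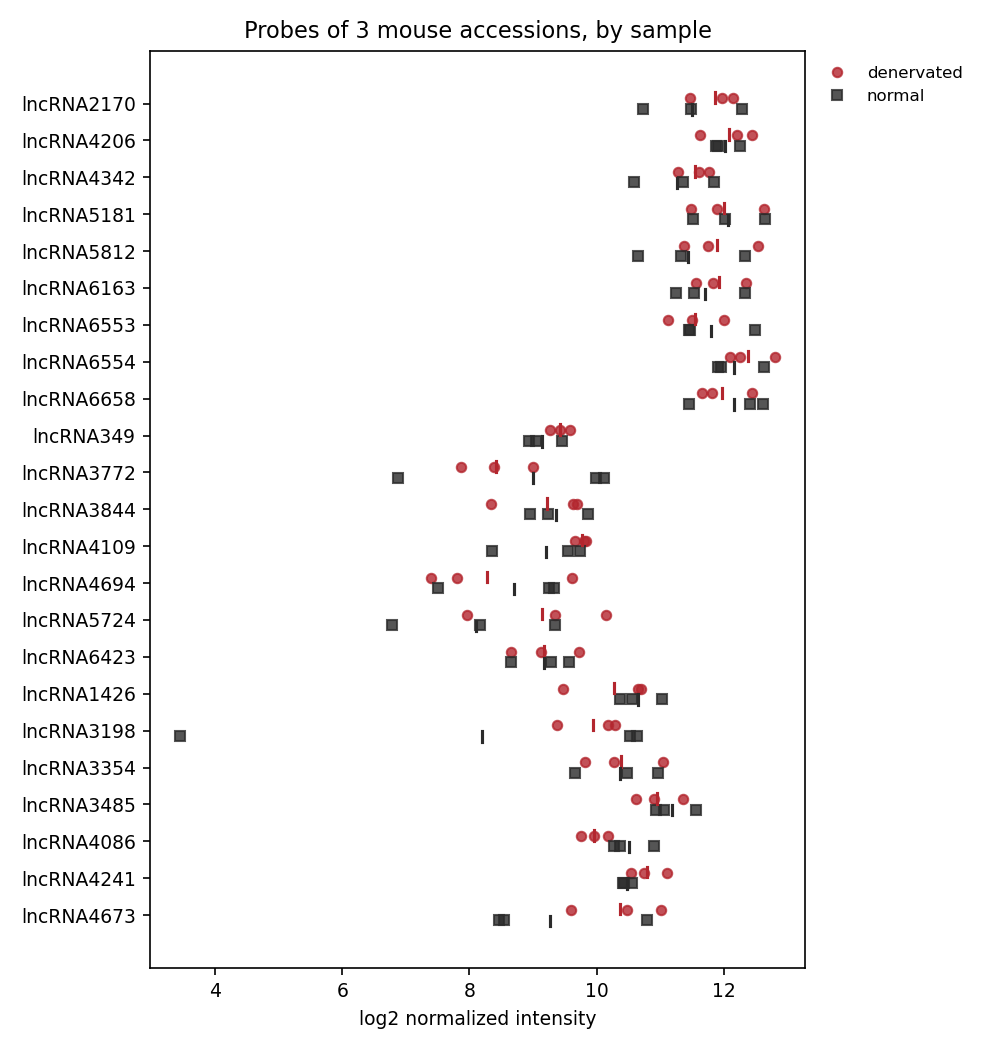
Log2 normalized intensity by sample for the 9 probes of NR_030463 (top), the 7 of NR_028141 (middle) and the 7 of NR_033603 (bottom), denervated samples as red circles, normal samples as black squares and group means as vertical bars. Normal 2 of lncRNA3198 lies alone at 3.45.

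Of the 36 called lncRNAs, 12 had another mouse-matched probe with the same accession or an overlapping span on the array, 19 pairs in all. The sign of the difference was shared in 12 pairs and opposite in 7. In 1 case both partners were called: lncRNA3973 (NR_040676) and lncRNA5530 (NR_040675) lie on the same span of chromosome 12 from 51612244 to 51621415 (minus strand). lncRNA3973 read 9.20, 5.69 and 9.08 against 5.36, 4.75 and 0.92, and lncRNA5530 read 8.25, 7.85 and 8.52 against 5.47, 7.88 and 5.64. In both, normal 1 and normal 3 were below all denervated samples, but normal 2 of lncRNA5530 lay just above denervated 2. The log2 differences were 4.31 and 1.88 (limma, adjusted p = 1.0 for both). By contrast, lncRNA1853 (NR_073550) was called higher at 1.41, while lncRNA3653 and lncRNA3940, on its exact span on chromosome 2, had differences of -0.59 and -0.26.

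Mouse-matched lncRNAs also lay in dense groups. With neighbours joined when they were on 1 strand and at most 50 kb apart, 24 groups had 5 or more. The largest held 38 lncRNAs on the plus strand of chromosome 6 from 143019881 to 143062807, each with its own mouse accession and 37 of them short matches. Their levels ran from 0.94 to 13.27, with a median of 9.85, so that neighbours in a stretch this short differed over most of the range of the array. Of the 38, 14 had a higher mean after transection, 0 passed the thresholds (background 1.04% higher and 0.298% lower) and for 0 the groups did not overlap (background 3.37% and 2.53%). With so few lncRNAs a count of 0 is near these shares. The next group, 20 lncRNAs on the same strand from 142821652 to 142929557, had 11 higher and 0 called. A group of 17 on the minus strand of chromosome 17 from 73462759 to 73760900 holds RB_p_rnol000021, the 1 lncRNA called in it, and 6 of the 17 had a higher mean.

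Few of the lncRNAs could be set beside an Ensembl rat transcript of the same place. Overlaps with the RefSeq transcripts were not computed. Spans of 77 mouse-matched lncRNAs overlapped that of an Ensembl rat probe, 50 of them on the same strand and 29 on the opposite strand, a few on both. Only 11 pairs shared at least 50% of both spans on 1 strand. Within these 11 the levels differed by a median of 0.465, from 0.154 to 3.37, and the difference after transection had the same sign in 6.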

How the data were processed

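Per the labels, RNA was extracted with TRIZOL and labelled with Cy5. The authors scanned with a GenePix 4000B, applied 50% scaling, summarized repeated spots by their median and repeated arrays by their mean, and deposited log2 normalized intensity. A background correction or filter on dim probes is not stated in the sources used here. A second deposited table equals it for all 6716 probes (differences under 1e-06). 1 probe is not reported here. The authors' 2 comparison lists (fold changes and p-values) were not used.

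All 6716 probes entered 1 fit of denervated against normal samples without covariates (lmFit and eBayes of limma 3.58.1, R 4.3.3), with Benjamini-Hochberg adjustment. The fit was tested on simulated data first. The rank product test of the methods was not run. Summaries used pandas 2.3.3. Samples, 3 per group, are separate samples by their labels. They may come from only 3 rats, and this fit and the exact tests over samples ignore any pairing. The p-values measure the spread between samples, which may differ from that between animals, and the number of arrays limits the precision.

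The lncRNAs and lists were chosen with earlier results of these data known. Named lncRNAs are the 6 brightest, those with the largest differences at the thresholds without overlap (6 per direction with no value under 5, 3 per direction with one), the 3 accessions with most probes (ties by accession) and the 4 largest spreads. These values chose them. Partners of called lncRNAs are named where they share an accession or span.

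Results were recomputed after quantile normalization or centring of each array, on the brighter 50% of probes, and with values under 5 set to 5. Further settings were other dim limits, an intensity trend, sample number as block, means over probes of 1 accession and leaving out each sample. A Student t-test was also used, which the methods name in their general statistics, beside limma and the rank product test for the array. Leaving out denervated 3 and normal 2 together was added after the data were seen.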

Additional observations from a re-analysis of the deposited data

How the results depend on the processing

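The 1 lncRNA past the adjusted p became 0 under quantile normalization, on the brighter 50% of probes and with values under 5 set to 5. It also became 0 with an intensity trend, with the block and with the Student t-test. In this order 58, 26, 69, 49, 26 and 65 lncRNAs had an unadjusted p under 0.05. The number past the adjusted p was 2 without denervated 3 and normal 2. The 22 higher and 14 lower lncRNAs numbered 6 and 5 on the brighter 50%, which holds 1572 of the lncRNAs. They numbered 6 and 7 with the Student t-test, 18 and 8 with the block, and 110 and 47 without both samples. Quantile normalization gave 21 and 20. Groups did not overlap for 44 and 35 on the brighter 50%, which holds fewer lncRNAs, and for 733 and 653 without both samples, where fewer samples overlap less by construction. Among these alternatives, shares of all probes were computed only for the calls without both samples, at 4.01% higher and 1.38% lower. The other counts therefore cannot be read as a trait of the lncRNAs.

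Leaving out 1 sample gave 9 to 96 higher mouse-matched lncRNAs (0.269% to 2.87%, background 0.581% to 3.65%). It gave 5 to 48 lower ones (0.149% to 1.43%, background 0.0893% to 1.34%). The number past the adjusted p was 0 to 5, and 131 to 442 higher and 120 to 394 lower ones were without overlap. Here too fewer samples overlap less by construction. Shares of all probes past the adjusted p or without overlap were not computed for these settings, so those counts cannot be read as a trait of the lncRNAs. The level against the Ensembl rat transcripts ranged from -0.714 to -0.693 and against the RefSeq transcripts from 0.10 to 0.121, where 5 samples allow no exact p under 0.0625. Without both samples these were -0.695 and 0.132 (exact p = 0.125, the smallest possible). The dim share ranged from 0.427 to 0.744 and from -0.658 to -0.358 points without 1 sample. Against the Ensembl rat transcripts it was 0.931 with a limit of 5 and 0.545 with a limit of 0 (exact p = 0.03125 for both), and against the RefSeq transcripts -0.846 with a limit of 5 (exact p = 0.03125), -0.493 with a limit of 0 (exact p = 0.0625) and -0.378 without both samples. The shift after transection ranged from -0.0441 to 0.00872 against the Ensembl rat transcripts, where it turned without denervated 3 (0.00872) and without both samples (0.0150). Against the RefSeq transcripts it ranged from -0.0190 to 0.0331, and turned without denervated 1 (-0.0190), without normal 2 (-0.00535) and on the brighter 50% (-0.0172). The median SD ranged from 0.463 to 0.575, and was 0.366 without both samples, where fewer samples tend to lower it. Unless stated, the cause was not tested.

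Samples of equal number had correlations of deviations of -0.05, -0.52 and -0.35. The deviations also carry the likeness between samples of different groups described above. These correlations therefore cannot show whether samples of equal number form a pair. With the number as a replicate block lncRNA3055 had an adjusted p of 0.780 in limma. No measure of background is given, which limits every lncRNA with a value under 5.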
